A study of Mus musculus with 8 samples.

Results

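The cathepsins examined here are 10 genes for intracellular proteases, Ctsa, Ctsb, Ctsc, Ctsd, Ctse, Ctsh, Ctsk, Ctsl, Ctss and Ctsz, and the members were all 22 probe sets that the platform annotation gives to these symbols, of 45037 probe sets without controls. The genes were chosen by name, 10 of 18193 genes that have a probe set of their own. Expression was measured in whole spleens of 8-week-old Nix null mice (Nix-/-, labelled Nix_KO in the arrays' names here) and wild-type mice (WT), with 4 arrays of each genotype, untreated and with RNA that was not pooled. The arrays keep their title numbers: Nix_KO 10, 2, 3 and 6, and WT 3, 4, 5 and 6. Strain, sex and the deleted part of Nix (gene Bnip3l) are not given in the sources used here.

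Cathepsins are proteases that work mainly in the acid interior of lysosomes and endosomes, and they fall into 3 catalytic classes. Ctsa is a serine carboxypeptidase, Ctsd and Ctse are aspartic proteases, and the other 7 are cysteine proteases of the papain family. In the spleen the cysteine cathepsins are known from macrophages, dendritic cells and B cells, where Ctss in particular trims the invariant chain from MHC class II molecules, while cathepsin E is also known from red cell membranes. A value below is the log2 of the deposited intensity, a level is meaningful only within a probe set, and a difference is Nix_KO minus WT.

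Signal was even across arrays, with 48.6% to 49.3% of probe sets at a log2 intensity of at least 5. The 3 probe sets of Bnip3l differed by 0.43, -0.50 and 0.58 and did not pass the test (limma adjusted p = 0.158, 0.164 and 0.117); they are annotated jointly with a pseudogene and so do not check the genotype labels. The arrays Nix_KO 3, WT 3 and WT 5 carried pancreatic acinar signal: the mean log2 intensity of 14 acinar markers was 12.86, 11.88 and 9.82 there and between 5.30 and 7.24 in the other 5 arrays. The spleen label was set against B cell markers, which averaged 11.88 to 12.13 over 11 genes in WT. Over all tested probe sets the median difference was -0.12, and 41.6% of the called ones were higher, against 52.4% when each array was centred on its median.

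In Nix_KO spleen 1 of the 2 tested probe sets of cathepsin E rose, while the other differed by -1.05 and did not pass, and Ctsa, Ctsc, Ctsh, Ctss and Ctsz fell. Testing required a log2 intensity of 5 or more in 4 or more of the 8 arrays, and a probe set was called where limma's p, adjusted over all 22347 tested probe sets, was under 0.05. Of the 22 cathepsin probe sets 18 were tested, from 9 genes; 2 were higher, 8 were lower and 8 did not pass. Of all tested probe sets 12.5% were called higher and 17.6% lower. The 8 lower ones came from 5 genes, Ctsa, Ctsc, Ctsh, Ctss and Ctsz, with differences from -1.14 to -0.72, and the 2 higher ones from Ctse and Ctsb. The median difference of the 18 was -0.71, beside -0.12 over all tested probe sets. The 10 calls held with each array centred on its median, and without the 3 arrays with pancreatic signal 3 probe sets were lower and 0 higher, where 0.85% of all probe sets were lower and 2.24% higher.

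**Figure D1:**
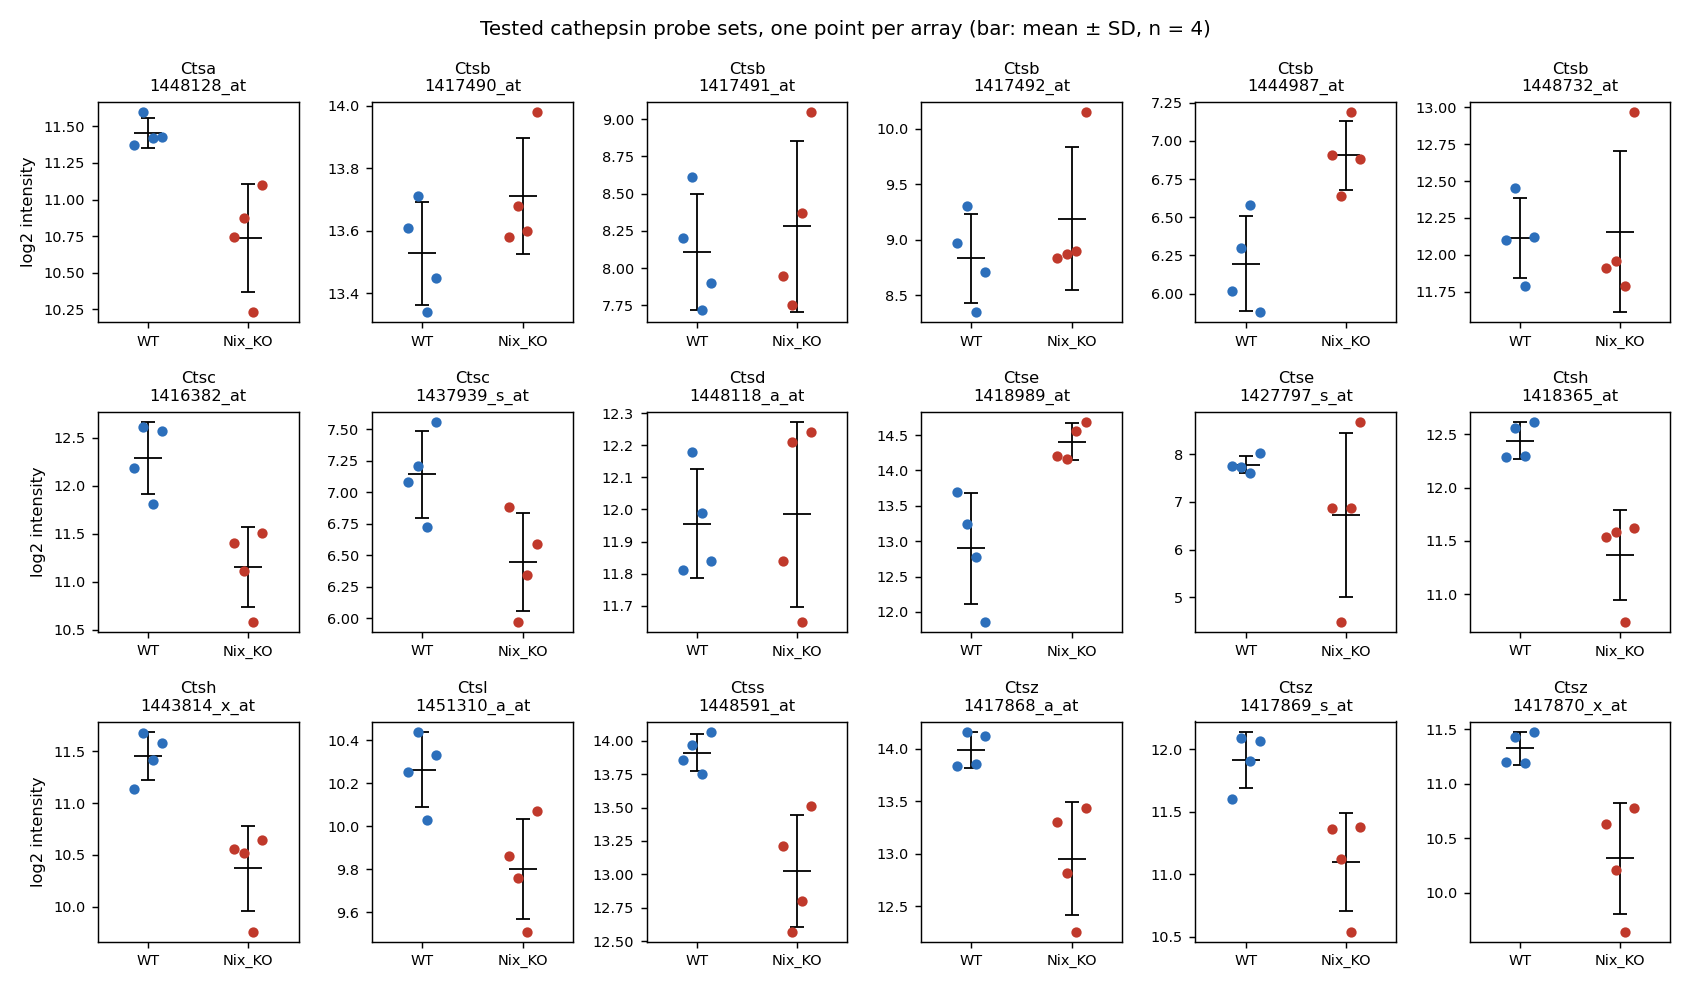
Log2 intensity (vertical axis, a separate scale in each panel) of the 18 tested cathepsin probe sets in the 4 WT (blue) and 4 Nix_KO (red) arrays, with 1 point per array and a bar for the mean ± SD. Red and blue points do not overlap for Ctse 1418989_at, which is higher in Nix_KO, or for the probe sets of Ctsh and Ctsz, which are lower.

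Ctse, which encodes the aspartic protease cathepsin E, was represented by 2 tested probe sets that went different ways. The brighter, 1418989_at, read 14.21, 14.16, 14.56 and 14.69 in Nix_KO 10, 2, 3 and 6, and 13.70, 13.25, 12.78 and 11.86 in WT 3, 4, 5 and 6. Every Nix_KO array was above every WT array, and the WT arrays were spread more widely than the Nix_KO arrays (SD 0.79 against 0.26, n = 4 each). The means of 14.40 and 12.90 gave a difference of 1.51 ± 0.35 SE, or 2.85-fold (limma adjusted p = 0.0119). The difference stayed called whichever single array was left out and was smallest without WT 6 (1.16). Without Nix_KO 3, WT 3 and WT 5 it was 1.80 ± 0.43 SE and no longer passed (limma adjusted p = 0.0688).

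The other Ctse probe set, 1427797_s_at, was dimmer and did not rise. It read 6.87, 4.49, 6.87 and 8.68 in Nix_KO 10, 2, 3 and 6 and 7.75, 7.73, 7.61 and 8.03 in the WT arrays. The WT arrays lay close together, and the Nix_KO arrays lay on both sides of them. Its difference of -1.05 ± 0.69 SE did not pass (limma adjusted p = 0.272), although without Nix_KO 6 it was -1.70 and passed (limma adjusted p = 0.0419). Within an array the first probe set minus the second was 7.68 on average in Nix_KO and 5.11 in WT, a change of 2.56 (exact two-sided permutation p = 0.0286, the smallest that 4 against 4 can give). When the 2 probe sets were averaged, Ctse differed by 0.23 ± 0.40 SE and did not pass (limma adjusted p = 0.682). The rise of Ctse below is therefore that of 1418989_at alone, and which transcripts each probe set reads was not tested.

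The 5 genes with lower probe sets were the cysteine cathepsins Ctss, Ctsc, Ctsh and Ctsz and the serine carboxypeptidase Ctsa. Ctss, the cysteine protease that completes invariant chain removal, read 13.21, 12.57, 12.80 and 13.51 in Nix_KO 10, 2, 3 and 6 and 13.86, 13.97, 13.75 and 14.07 in WT 3, 4, 5 and 6. All 4 Nix_KO arrays were below all WT arrays. The fall was 1.85-fold (difference -0.89 ± 0.21 SE, limma adjusted p = 0.0136). Across the 18 tested probe sets, 8 had groups that did not overlap with Nix_KO lower, and 2 with Nix_KO higher; the share of all tested probe sets was 19.5% and 15.0%.

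Ctsc, also called dipeptidyl peptidase I, activates granule serine proteases of neutrophils and cytotoxic lymphocytes by removing dipeptides. Its brightest probe set, 1416382_at, read 11.40, 11.11, 10.58 and 11.51 in Nix_KO 10, 2, 3 and 6 and 12.18, 12.61, 11.81 and 12.57 in the WT arrays, again without overlap. It fell 2.20-fold (difference -1.14 ± 0.25 SE, limma adjusted p = 0.0102). A second probe set, 1437939_s_at, differed by -0.70 ± 0.24 SE and was just outside the threshold (limma adjusted p = 0.0512). It passed without Nix_KO 10 (-0.84, limma adjusted p = 0.0271), without WT 5 (-0.84, 0.0426) and with array weights (-0.62, 0.0459). The third, 1446834_at, was too dim to be tested, at 3.38 to 5.0.

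Ctsh, an aminopeptidase, had 2 probe sets that fell alike. The first, 1418365_at, read 11.54, 11.58, 10.74 and 11.62 in Nix_KO 10, 2, 3 and 6 and 12.29, 12.56, 12.30 and 12.62 in WT 3, 4, 5 and 6. Nix_KO 3 lay apart from the other 3 Nix_KO arrays, and no Nix_KO array reached the lowest WT array. The fall was 2.10-fold for 1418365_at and 2.12-fold for 1443814_x_at (differences -1.07 ± 0.22 SE and -1.09 ± 0.22 SE, limma adjusted p = 0.00715 and 0.00748).

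Ctsz, a carboxypeptidase also known as cathepsin X, fell in all 3 of its probe sets. The brightest, 1417868_a_at, read 13.30, 12.82, 12.26 and 13.44 in Nix_KO 10, 2, 3 and 6 and 13.84, 14.16, 13.85 and 14.12 in the WT arrays, without overlap. Its fall was 2.05-fold (difference -1.03 ± 0.25 SE, limma adjusted p = 0.0149). The falls of 1417870_x_at and 1417869_s_at were 2.01-fold and 1.76-fold (limma adjusted p = 0.0139 and 0.0199). The call of 1417869_s_at was lost without WT 4 (-0.76, limma adjusted p = 0.0631) or WT 6 (-0.77, 0.061).

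Ctsa, the serine carboxypeptidase that protects beta-galactosidase and neuraminidase in lysosomes, read 10.74, 10.87, 10.23 and 11.10 in Nix_KO 10, 2, 3 and 6 and 11.37, 11.60, 11.42 and 11.43 in WT 3, 4, 5 and 6. The groups did not overlap, and the fall was 1.64-fold (difference -0.72 ± 0.19 SE, limma adjusted p = 0.0217). That call was lost without WT 4 (-0.67, limma adjusted p = 0.0675) or without WT 6 (-0.73, 0.0555). Its other probe set, 1458466_at, was at 2.49 to 3.10 and was not tested.

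Nix_KO 3, the array with the most acinar signal, was the lowest of all 8 arrays in 9 of the 18 tested probe sets. It was also lowest in 7 of the 8 called lower, those of Ctsa, Ctsc, Ctsh and Ctsz but not that of Ctss. All 8 had groups without overlap, so their lowest array had to be a Nix_KO array. The share of all tested probe sets with Nix_KO 3 lowest was not computed, and no conclusion is drawn from these counts. Without Nix_KO 3, WT 3 and WT 5 the lower calls that remained were those of Ctsc 1416382_at (-1.24, limma adjusted p = 0.0491) and both probe sets of Ctsh (-1.01 and -1.06, limma adjusted p = 0.0494 and 0.0492). The differences of Ctss, Ctsz 1417868_a_at and Ctsa were then -0.92, -0.95 and -0.61 (limma adjusted p = 0.121, 0.0786 and 0.125). In that comparison 3 arrays stood against 2.

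**Figure D2:**
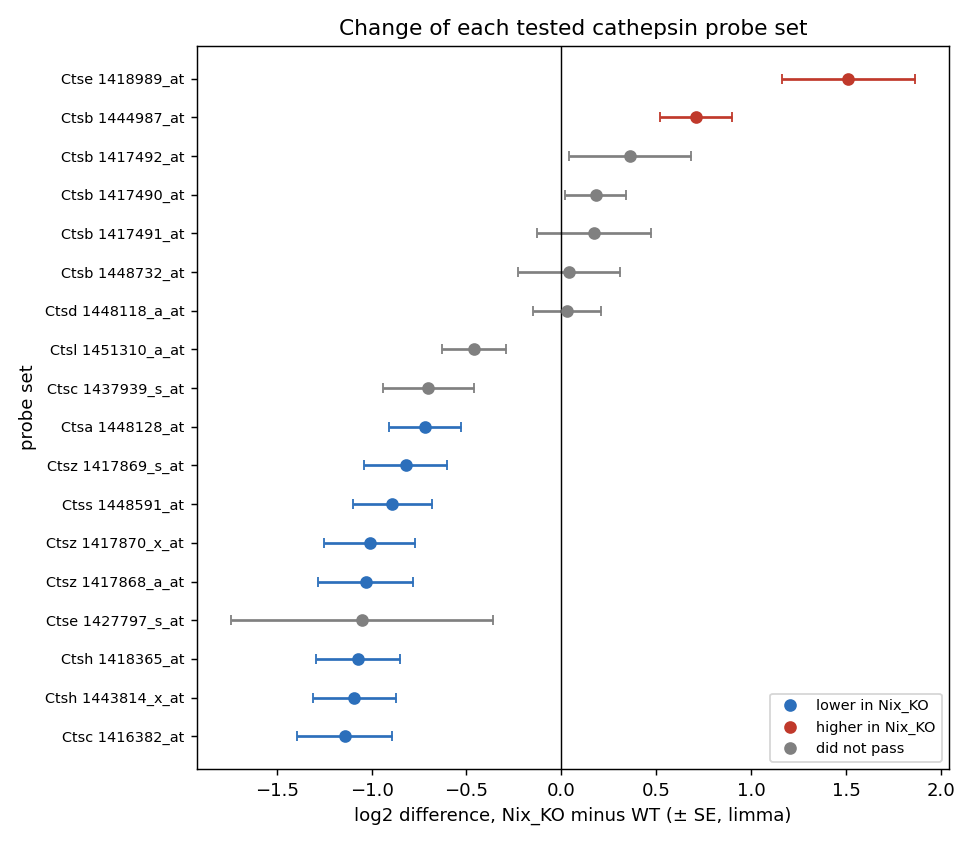
Log2 difference, Nix_KO minus WT, with its standard error from limma (horizontal axis) for each of the 18 tested cathepsin probe sets (vertical axis); red marks probe sets called higher, blue those called lower and grey those that did not pass. Ctse 1418989_at lies furthest right at 1.51 and Ctsc 1416382_at furthest left at -1.14, while the grey Ctse 1427797_s_at lies at -1.05 with the widest error.

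The remaining cathepsins with signal did not pass in their brightest probe sets. Ctsd, the main aspartic protease of lysosomes, read 11.84, 12.21, 11.65 and 12.24 in Nix_KO 10, 2, 3 and 6 and 11.81, 12.18, 11.99 and 11.84 in WT 3, 4, 5 and 6. The groups overlapped, and the difference was 0.03 ± 0.18 SE (limma adjusted p = 0.917), with a sign that turned under several alternatives. Ctsl, a cysteine endopeptidase, was lower in size but not called: 9.86, 9.76, 9.51 and 10.07 against 10.25, 10.44, 10.03 and 10.33 (difference -0.46 ± 0.17 SE, limma adjusted p = 0.0622). It passed without Nix_KO 6 (-0.56, limma adjusted p = 0.0357), with array weights (-0.57, 0.0161) and with probe sets averaged per gene (-0.46, 0.0429).

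Ctsb, a cysteine protease of both endopeptidase and exopeptidase activity, had 5 tested probe sets. The brightest, 1417490_at, read 13.58, 13.68, 13.60 and 13.98 in Nix_KO 10, 2, 3 and 6 and 13.61, 13.71, 13.34 and 13.45 in the WT arrays, which overlap (difference 0.18 ± 0.16 SE, limma adjusted p = 0.393). The probe sets 1417491_at, 1417492_at and 1448732_at differed by 0.17, 0.36 and 0.04 and did not pass, with Nix_KO 6 the highest array in each. The dimmest, 1444987_at, rose 1.64-fold, from 6.02, 6.30, 6.58 and 5.88 in WT 3, 4, 5 and 6 to 6.91, 6.64, 7.19 and 6.88 in Nix_KO 10, 2, 3 and 6 (difference 0.71 ± 0.19 SE, limma adjusted p = 0.0229). The groups of 1444987_at did not overlap but nearly met at Nix_KO 2 and WT 5, and its call was lost without Nix_KO 3, WT 3, WT 4 or WT 6 (0.62, 0.65, 0.75 and 0.60, limma adjusted p = 0.0546, 0.0563, 0.0511 and 0.0723). The change of 1444987_at minus that of 1417490_at was 0.53 (exact two-sided permutation p = 0.0857).

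Ctsk, the collagen-degrading cathepsin of osteoclasts, stayed near background at 4.10 to 4.97 in its 1 probe set and was not tested, and the second Ctsl probe set, 1457724_at, was at 3.95 to 4.35. The filter excluded probe sets near its floor: Ctsk and Ctsc 1446834_at were just below it, and Ctsb 1444987_at (means of 6.90 in Nix_KO and 6.19 in WT) and Ctsc 1437939_s_at (6.45 and 7.14) were the dimmest inside.

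Whether Ctse changed differently from each other cathepsin was tested within arrays, over 8 pairs of the brightest tested probe set of each gene. The log2 intensity of Ctse minus that of Ctss went from -1.02 ± 0.87 in WT to 1.38 ± 0.36 in Nix_KO (SD, n = 4 each), a change of 2.40. Relative to Ctsc, Ctsh, Ctsz and Ctsa the change was 2.65, 2.58, 2.54 and 2.23, and relative to Ctsl, Ctsd and Ctsb 1.97, 1.48 and 1.33. In all 8 pairs every Nix_KO array was above every WT array (exact two-sided permutation p = 0.0286 each, adjusted p = 0.0286 over the 8 pairs, the smallest possible). The pairs share the Ctse values, so they are not independent. For Ctsa, Ctsc, Ctsh, Ctss and Ctsz the result was fixed beforehand, since Ctse and each of these already had groups without overlap in opposite directions. Only the pairs with Ctsb, Ctsd and Ctsl could have overlapped. Without Nix_KO 3 no adjusted p of these pairs was under 0.05 (each 0.0571), although the changes, from 1.24 to 2.40, still had groups that did not overlap. With the probe sets of each gene averaged, 0 of 8 pairs passed, and the changes ran from -0.07 to 1.31. Without the 3 arrays with pancreatic signal the changes ran from 1.63 to 3.04, with 3 arrays against 2, where 0.1 is the smallest p.

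**Figure D3:**
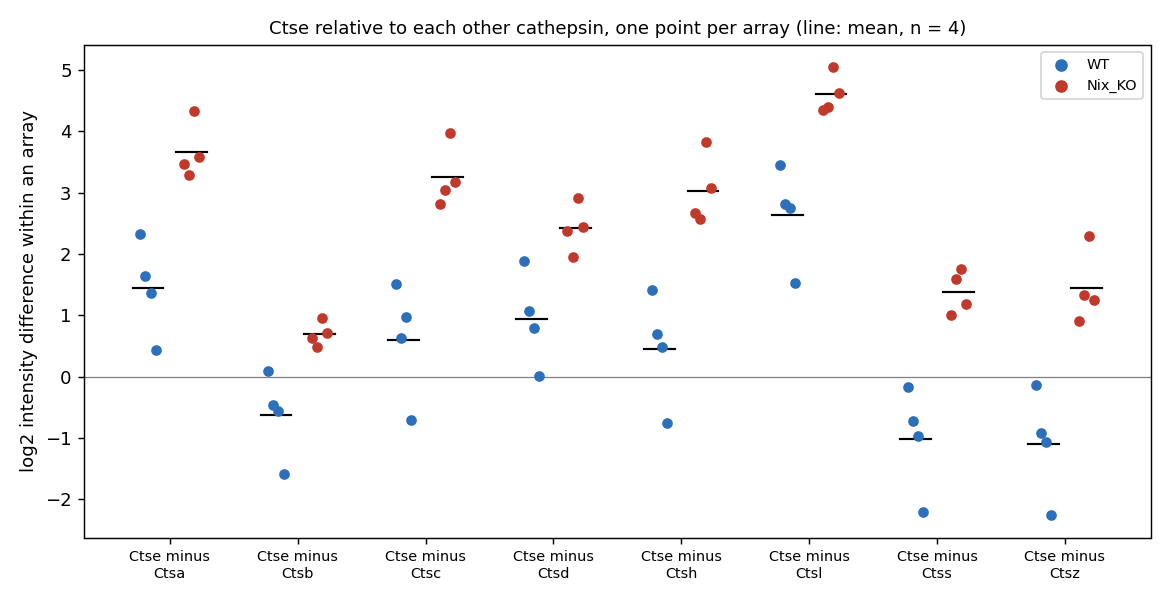
Log2 intensity of Ctse 1418989_at minus that of another cathepsin in the same array (vertical axis) for the 8 pairs tested (horizontal axis), with 1 point per array, WT in blue and Nix_KO in red, and a line at each mean. Red points lie above all blue points in every pair, from a change of 1.33 relative to Ctsb to 2.65 relative to Ctsc; the zero line has no meaning of its own, since levels of different probe sets are not comparable.

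Promoter sequence is shown for 3 of the genes that fell, Ctss, Ctsc and Ctsz, and for Ctsd, which did not pass. The windows of Ctsa, which also fell, of Ctsl, which did not pass, and of Ctsk are not printed, but their matches are counted below. The printed windows are a choice and set out no contrast of motifs between genes that fell and others. RefSeq windows (GRCm38.p6) were held for 7 of the 10 genes, 8 windows in all; Ctsb, Ctse and Ctsh had no entry. Each line gives the 250 bases before the listed start, 5' to 3' on the gene's strand, with matches to 3 motifs in capitals: CACGTG (the core of the E-box read by TFEB-type factors), GAGGAA (a core read by PU.1-type factors) and AGATAA (a core read by GATA factors), each searched on both strands, with 0 overlaps between matches.
Ctss, chr3:95526536-95526785, plus strand: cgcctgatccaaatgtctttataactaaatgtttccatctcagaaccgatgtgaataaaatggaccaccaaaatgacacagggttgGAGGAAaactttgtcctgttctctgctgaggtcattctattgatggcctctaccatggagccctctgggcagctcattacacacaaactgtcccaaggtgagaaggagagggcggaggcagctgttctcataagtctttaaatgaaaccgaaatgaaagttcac
Ctsc, chr7:88277835-88278084, plus strand: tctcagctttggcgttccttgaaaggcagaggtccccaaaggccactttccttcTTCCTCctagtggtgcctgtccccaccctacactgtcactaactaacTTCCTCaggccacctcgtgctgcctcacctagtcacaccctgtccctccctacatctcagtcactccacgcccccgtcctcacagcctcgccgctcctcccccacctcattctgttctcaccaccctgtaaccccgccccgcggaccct
Ctsz, chr2:174439040-174439289, minus strand: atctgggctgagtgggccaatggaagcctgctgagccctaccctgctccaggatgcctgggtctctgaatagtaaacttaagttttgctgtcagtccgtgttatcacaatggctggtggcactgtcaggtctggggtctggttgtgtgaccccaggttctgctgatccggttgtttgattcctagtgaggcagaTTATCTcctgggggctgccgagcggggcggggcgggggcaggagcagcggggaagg
Ctsd, chr7:142387828-142388077, minus strand: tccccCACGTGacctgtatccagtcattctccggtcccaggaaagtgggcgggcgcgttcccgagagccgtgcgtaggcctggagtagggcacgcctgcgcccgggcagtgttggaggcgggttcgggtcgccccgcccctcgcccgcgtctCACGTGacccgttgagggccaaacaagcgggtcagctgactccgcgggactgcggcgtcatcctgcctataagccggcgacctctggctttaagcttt
CACGTG occurred in 3 of the 8 windows, those of Ctsd (2 matches), Ctsl and 1 of the 2 windows of Ctsa, and in 6.02% of 32851 windows of the same length. GAGGAA occurred in 3 windows, of Ctss, Ctsc (2 matches) and Ctsk (2 matches), and in 23.3% of all windows. AGATAA occurred in the window of Ctsz alone among the 8, and in 9.99% of all. A match describes these letters only.

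Marker lists of spleen cell types changed in different directions and to different extents. In whole spleen, fewer cells of a type and less RNA per cell cannot be told apart. The lists were chosen with earlier results of these data known, so their counts are a description. For these lists each gene is taken at its brightest tested probe set, where 13.1% of 11027 genes were called higher and 21.3% lower, with a median difference of -0.15. All 25 tested erythroid markers were called higher (25 of 30 listed, median 2.06), and their mean log2 intensity was 12.13 to 12.66 in Nix_KO and 9.33 to 11.23 in WT arrays. The 4 WT arrays had 11.23, 10.71, 10.50 and 9.33 in WT 3, 4, 5 and 6, which is also the order of Ctse and of the neutrophil marker mean (9.61, 9.18, 7.80 and 7.49) in those arrays. In Nix_KO the orders differed, with Ctse lowest in Nix_KO 2 and the erythroid mean lowest in Nix_KO 10. Without the 3 arrays with pancreatic signal, with 3 arrays against 2, the erythroid median was 2.56 and 9 of the 25 were called.

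Of 18 tested macrophage and monocyte markers (21 listed) 3 were lower, Csf1r (-0.87), C1qa (-0.81) and Timd4 (-1.25; limma adjusted p = 0.00838, 0.0282 and 0.0356), 0 were higher, and the median was -0.36. Among all genes 21.3% were called lower. The Csf1r call held in all 8 fits with 1 array left out, while those of C1qa and Timd4 each held in only 3. Their mean log2 intensity was 9.53, 9.65 and 9.49 in Nix_KO 10, 2 and 3, below all WT arrays (9.93 to 10.26), and 10.20 in Nix_KO 6, within the WT range. The pan-macrophage marker Adgre1 differed by -0.03 ± 0.21 SE (limma adjusted p = 0.925), and the markers Siglec1 and Vsig4 were below the filter. Of 10 tested dendritic cell markers (12 listed) 7 were lower, with a median of -1.02 and means of 7.90 to 8.63 against 8.87 to 9.26, and of 11 tested B cell markers (12 listed) 10 were lower, with a median of -1.39 and means of 10.31 to 11.03 against 11.88 to 12.13. Of 9 tested T cell markers (11 listed) 5 were lower (median -0.86), of 12 endothelial and stromal genes 10 were lower (median -1.09), and of 11 tested neutrophil markers (14 listed) 9 were higher (median 1.80). With 1 array left out, all 10 B cell calls held in each of the 8 fits. Some calls of the dendritic cell, T cell, stromal and neutrophil lists were lost, the least stable being kept in 1 of the 8 fits, and others held in all. Without the 3 arrays with pancreatic signal the medians were -0.37 for macrophage, -1.07 for dendritic cell, -1.45 for B cell, -0.83 for T cell, -1.03 for stromal and 2.02 for neutrophil markers. In that smaller comparison 1 dendritic cell marker, 1 B cell marker and 0 of the others were called. None of the 14 tested acinar markers was called (22 listed, median -1.52). The part of these cells in the cathepsin differences was not tested.

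**Figure D4:**
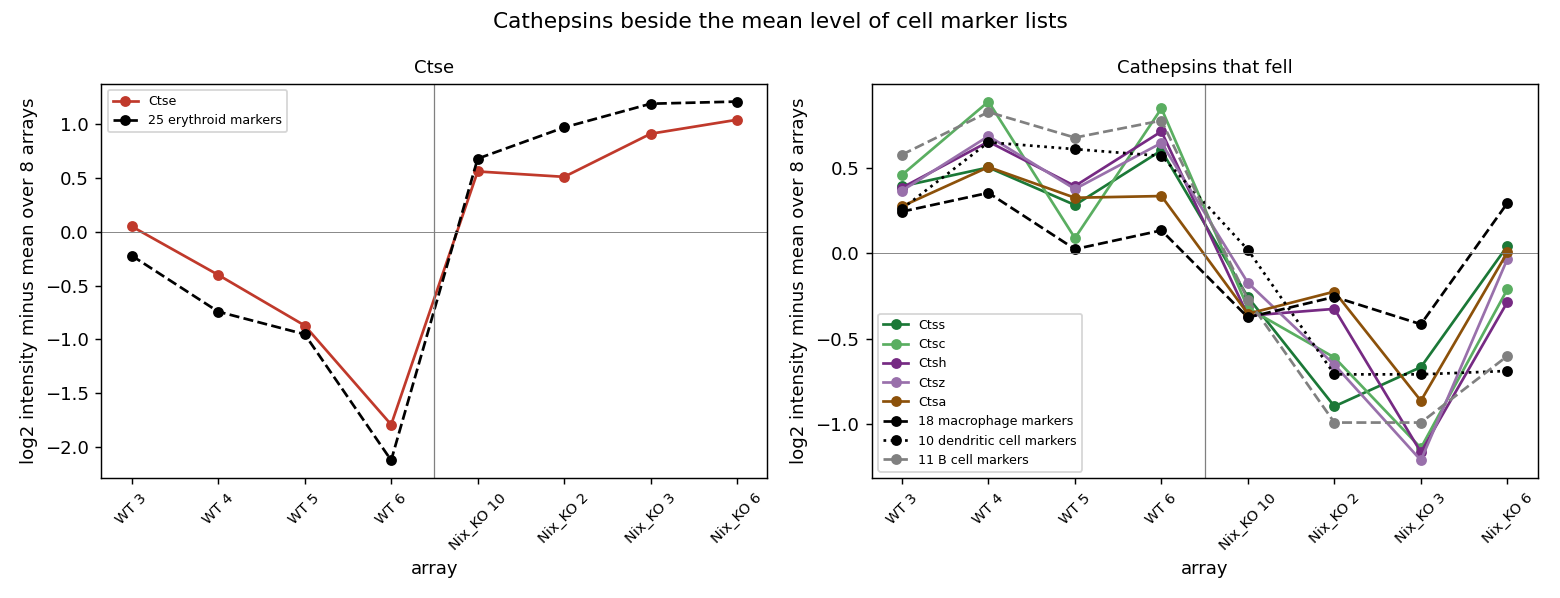
Log2 intensity minus its mean over the 8 arrays (vertical axis) in each array (horizontal axis, WT left of the line and Nix_KO right of it); left, Ctse 1418989_at with the mean of 25 erythroid markers, and right, the 5 cathepsins that fell with the means of 18 macrophage, 10 dendritic cell and 11 B cell markers. Ctse and the erythroid mean are lowest in WT 6 (11.86 and 9.33) and highest in Nix_KO 6 (14.69 and 12.66), while the macrophage mean lies below all WT arrays in Nix_KO 10, 2 and 3 (9.49 to 9.65) and within the WT range in Nix_KO 6 (10.20).

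The genes whose log2 intensity followed Ctse 1418989_at most closely over the 8 arrays were Ermap (Pearson r = 0.997), Pigq (0.995), Ift140 (0.995), Kel (0.995) and Ank1 (0.994). Taken as deviations from the group means, so that the genotype difference does not enter, the closest were Kel (0.998), Ermap (0.991), Ift140 (0.989), Pigq (0.987) and 1300017J02Rik (0.986). The deviations of Ctse were larger in WT than in Nix_KO (SD 0.79 against 0.26), so these r values rest mainly on the WT arrays. For Ctss the closest were Zfand3 (0.995), Msn (0.994), Arsb (0.992), Rnf135 (0.992) and Pmaip1 (0.991), and by deviations Eps8 (0.990), Zfand3 (0.988), Git2 (0.987), Tmem135 (0.986) and Dicer1 (0.986). These are the closest of the tested probe sets annotated to 1 gene, leaving out other probe sets of the same gene. The points share arrays and their normalization, and the values are given as a description.

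Cathepsins outside the 10 changed in both directions. In this list and those below each gene is again taken at its brightest tested probe set, where 13.1% of 11027 genes were called higher and 21.3% lower. Of 12 others listed 4 were tested, and all 4 were called. Ctsf, a papain-family cathepsin, rose 4.49-fold, from 6.57, 6.10, 6.43 and 5.21 in WT 3, 4, 5 and 6 to 7.47, 8.81, 8.07 and 8.64 in Nix_KO 10, 2, 3 and 6 (difference 2.17 ± 0.36 SE, limma adjusted p = 0.0039). Among these 4 Ctsf alone was still called without the 3 arrays with pancreatic signal (2.65, limma adjusted p = 0.0497). Ctsg, the serine protease of neutrophil primary granules, rose 4.66-fold (limma adjusted p = 0.028), a call lost without Nix_KO 2, WT 5 or WT 6 (2.22 in all arrays, 1.83 to 2.74 leaving out 1). Ctsw, expressed in cytotoxic lymphocytes, fell 2.21-fold (limma adjusted p = 0.00359), and Ctso fell 1.99-fold (limma adjusted p = 0.0256). The Ctso call was lost without Nix_KO 2, Nix_KO 3, WT 3, WT 4 or WT 6 (-1.21 to -0.86). The placental cathepsins of the list, such as Ctsj and Ctsq, were below the filter.

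Of 4 tested cystatins and stefins, which block cysteine cathepsins, 1 was lower: cystatin C, Cst3, fell 2.46-fold (difference -1.30 ± 0.22 SE, limma adjusted p = 0.00423), while Cstb differed by -0.31 (limma adjusted p = 0.199). The shares of all 11027 genes were 13.1% higher and 21.3% lower. Of 8 lysosomal partners 6 were lower (median -0.70), including the invariant chain gene Cd74, Npc2 (1.48-fold), the saposin precursor gene Psap (1.71-fold) and the beta-galactosidase gene Glb1 (1.58-fold); limma adjusted p = 0.00839, 0.0137, 0.0163 and 0.0187. Cd74 read 14.35 in each of the 4 WT arrays and 13.86, 13.17, 13.30 and 13.72 in Nix_KO 10, 2, 3 and 6; whether this constant WT reading is a ceiling of the probe set was not tested, and no fold is given. Psap lost its call without WT 4 and Glb1 without WT 4 or WT 6. For Npc2 a further probe set was called lower and another was not called. Of 6 tested genes on a list of granule proteins, drawn up for the serine proteases that Ctsc activates but also holding the peroxidase gene Mpo, which is not one of them, Mpo, Prtn3 and Elane were higher (4.18-fold, 4.24-fold and 3.02-fold) and Gzma was lower (2.73-fold), with limma adjusted p = 0.0282, 0.0405, 0.0428 and 0.0188. Mpo lost its call without Nix_KO 2, WT 5 or WT 6, Gzma without WT 6, and Prtn3 and Elane without any 1 of 6 arrays.

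Lysosomal hydrolases fell more often than they rose. Of 27 tested lysosomal hydrolases 13 were lower and 0 higher (median -0.56); the palmitoyl-protein thioesterase gene Ppt1 fell 2.31-fold, Arsb 1.89-fold, Man2b1 1.76-fold and Naglu 2.23-fold (limma adjusted p = 0.00479, 0.00948, 0.0103 and 0.012). Of 26 tested genes of the lysosomal membrane and proton pump 5 were lower, 3 higher and 18 did not pass. Among all 11027 genes 21.3% were lower and 13.1% higher, and the membrane and pump genes lay near these shares. Their median was -0.09 and 0.03 when arrays were centred on their medians, with Atp6v1e1 and Atp6v0a1, subunits of the pump, 1.61-fold and 1.54-fold higher and Cln3 and Laptm4b 1.72-fold lower each (limma adjusted p = 0.00819, 0.0176, 0.00997 and 0.0138). Of 13 regulators and sorting factors 4 were lower and 0 higher (median -0.46), among them the lysosomal transcription factor genes Tfeb (1.63-fold) and Mitf (1.52-fold), the sorting adaptor gene Gga2 (1.96-fold) and Nagpa (2.05-fold); limma adjusted p = 0.0142, 0.0146, 0.0085 and 0.0218. The second probe set of Nagpa was called higher, and that of Cln3 was not called. For Laptm4b and Atp6v1e1 a further probe set was called in the same direction and another was not called. Without WT 4 or WT 6 the calls of Atp6v0a1 and Mitf were lost, and without Nix_KO 3, WT 4 or WT 5 that of Nagpa. Without the 3 arrays with pancreatic signal the medians were -0.62 for partners, -0.55 for cystatins and stefins, 0.75 for granule proteins, -0.45 for hydrolases, -0.16 for membrane and pump genes and -0.44 for regulators. In that comparison of 3 arrays against 2, 0 genes of these lists passed limma's adjusted threshold.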

How the data were processed

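Values came from the authors' series table. The deposited intensity of a probe set was made with GCRMA, per the submitters' processing notes, a method that subtracts background by probe sequence and quantile-normalizes; its version and the step to a linear scale are not given in the sources used here. All were above 0 (array medians 28.8 to 30.6) and were log2-transformed; GCRMA pulls dim probe sets to a common low level, which shrinks their differences. The 64 control probe sets were left out. Names came from the platform annotation (34945 probe sets with 1 gene, 932 with several, 9160 with none).

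Groups were compared with limma 3.58.1 (R 4.3.3; lmFit and eBayes, two-sided). P-values were adjusted by Benjamini-Hochberg over all tested probe sets, with a threshold of 0.05, and pairs of genes were compared by exact permutation over arrays. The number of arrays, 4 per group, limits the precision, and p-values measure only the spread between these arrays, which the labels do not tie to separate litters or days. The fitting code was tested on simulated data.

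The members and lists were chosen with earlier results of these data known. Named were all cathepsin probe sets, up to 4 genes per pathway list and up to 3 per marker list with the smallest adjusted p, and the 5 probe sets most like Ctse and Ctss; Adgre1, Siglec1, Vsig4 and Cstb were named after their values were seen. Alternatives were other filters (none, or a floor of 7), normalizations, an offset of 16, array weights, averaged probe sets, a replicate block and arrays left out. Leaving out the 3 arrays with pancreatic signal was chosen after seeing the data. Figures were drawn with matplotlib 3.10.9.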

Additional observations from a re-analysis of the deposited data

Results flagged for a closer look

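Of 44 groups of 4 arrays checked, 22 cathepsin probe sets in 2 genotypes, 5 had 1 array far from the other 3 (by Dixon's criterion), where chance gives about 1 group in 20. All 5 were in Nix_KO. Nix_KO 3 read 10.74 in Ctsh 1418365_at, below 11.54 to 11.62 in the other Nix_KO arrays, and 9.76 in Ctsh 1443814_x_at, below 10.52 to 10.64. Nix_KO 6 read 10.15 in Ctsb 1417492_at, above 8.84 to 8.90, and 12.97 in Ctsb 1448732_at, above 11.79 to 11.96. Nix_KO 2 read 3.10 in the untested Ctsa 1458466_at, above 2.58 to 2.62.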

How the results depend on the processing

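Of 358 values recomputed under alternatives, 296 were classed as unchanged. For a difference this means the same direction and side of the threshold. Counts classed so could still vary, such as 4576 probe sets called without WT 5 and 8155 with array weights, against 6711. With 1 array left out, the number of probe sets called ranged from 3996 to 6993 (6711 in all arrays), cathepsin probe sets higher from 1 to 2 and lower from 6 to 10, the Ctse difference from 1.16 to 1.78, and the pairs in which Ctse changed differently from 0 to 8. With probe sets averaged per gene, 4321 genes were called, and 0 cathepsins were higher and 6 lower. Ctse then differed by 0.23 and 0 pairs passed, with fewer features tested. The stricter filter left 1 higher cathepsin probe set, since Ctsb 1444987_at was not tested. Without the 3 arrays with pancreatic signal 690 probe sets were called, with 0 cathepsin probe sets higher and 3 lower, and Ctse differed by 1.80; fewer arrays were fitted. The numbers 3 and 6 occur in both genotypes, with correlations of deviations from the group means of 0.25 and 0.15; as the samples share only a number, the replicate block was fitted on those 4 arrays alone, where 1 probe set was called, 0 cathepsin probe sets were higher and 0 lower, and Ctse differed by 1.85.

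Among pairs, Ctse minus Ctsb, which passed, turned from 1.33 to -0.07 with probe sets averaged. Among single probe sets, directions turned in differences that did not pass. Ctsd was -0.15 with array weights and -0.05, -0.06, -0.02 and -0.01 without Nix_KO 2, Nix_KO 6, WT 3 and WT 6, in a range of -0.06 to 0.14 with 1 array left out. Ctsb 1417491_at was -0.11 with array weights, -0.09 without Nix_KO 6 and -0.01 without the 3 arrays, in a range of -0.09 to 0.34 with 1 array left out. Ctsb 1448732_at was -0.24 and -0.23 under the first 2 of these, -0.07 without WT 5 and -0.01 without the 3 arrays, in a range of -0.23 to 0.17. The causes were not tested. Signal near background limits Ctsk and the dim probe sets of Ctsa, Ctsc and Ctsl, which have no test.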

Other observations

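In the RefSeq gene order, Ctsb lies on chromosome 14, as does Bnip3l, with 42 protein-coding genes between them, and Ctsk and Ctss are neighbours on chromosome 3 with 0 between.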
